A study of Oncorhynchus mykiss with 70 samples.

Results

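Smad2 and Smad3 are the receptor-regulated Smads of activin and myostatin signalling, and 3 of the 49 pathway genes in a rainbow trout (Oncorhynchus mykiss) probe panel belong to them: smad2a2, smad3a1 and smad3a2. They were taken as every row of the count table whose name starts with smad2 or smad3. The panel was counted by NanoString, an assay in which colour-barcoded probes are hybridised to RNA and counted without amplification. It was applied to 70 samples of 23 tissues of untreated adult fish of 2 clonal lines, Swanson and Oregon State University, aged 2-3 years and reared in recirculating water. Of these, 22 samples came from 7 skeletal muscles (Epaxial, Hypaxial, Caudal, Red, Adductor and Pelvic Fin Skeletal Muscle and Extraocular Muscle) and 48 from 16 other tissues (Ovaries, Testes, Heart, Bulbus Arteriosus, Brain, Retina, Tongue, Gill, Liver, Spleen, Head Kidney, Visceral Fat, Pelvic Fin, Cardiac Stomach, Pyloric Caeca and Distal Intestine). Caudal Skeletal Muscle had 2 samples, Adductor and Pelvic Fin Skeletal Muscle 4 each, and every other tissue 3. Every sample is labelled male apart from the 3 of Ovaries. Which samples came from which line or fish is not given, and RNA was extracted with Tri-Reagent for some tissues, such as muscle, and with kits for others, so tissue and extraction cannot be told apart.

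When an activin, a myostatin or a related ligand binds a type II receptor, that receptor activates a type I receptor, which in turn phosphorylates Smad2 and Smad3. The phosphorylated Smads join the common partner Smad4, enter the nucleus and change transcription, while the inhibitory Smads Smad6 and Smad7 hold the pathway back. In mammals Smad3 binds DNA directly and the main form of Smad2 does not, and signalling through both limits the growth of skeletal muscle. Salmonids carry extra copies of many genes from a genome duplication in their ancestry, hence the paired gene names.

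The 3 probe targets are shown because they decide which gene copies each count stands for. Capitals mark the longest run of bases that the target shares with any other probe target of the panel on either strand.
smad2a2: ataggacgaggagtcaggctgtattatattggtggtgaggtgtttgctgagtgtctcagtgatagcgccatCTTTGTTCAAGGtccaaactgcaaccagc
smad3a1: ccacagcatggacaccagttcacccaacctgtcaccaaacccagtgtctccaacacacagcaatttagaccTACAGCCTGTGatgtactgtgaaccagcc
smad3a2: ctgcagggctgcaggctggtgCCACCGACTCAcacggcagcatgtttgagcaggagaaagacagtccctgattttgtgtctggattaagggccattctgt
Each target is 100 bases long, with a GC content of 48% for smad2a2, 52% for smad3a1 and 55% for smad3a2. The longest shared run was 12 bases for smad2a2 (with inhbab1), 11 for smad3a1 (with acvr1ba2) and 11 for smad3a2 (with inhab2). In the best ungapped alignment the smad3a1 and smad3a2 targets matched at 37 of 100 bases, with no common run longer than 7, so the 2 probes do not read the same stretch of the copies. The smad2a2 target matched that of smad3a1 at 28 bases and that of smad3a2 at 30.

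The authors' gene list places smad2a2 (LOC101268919) on chromosome 6, smad3a1 (LOC110526791) also on chromosome 6, and smad3a2 (LOC100305196) on chromosome 26. Its note on the smad2a2 probe says that the probe also binds smad2a1 (LOC101867532, chromosome 11), with 93% beside it, so a smad2a2 count stands for both copies. A further copy, smad3b (LOC118945776, chromosome 30), is listed without a probe. In the RefSeq annotation of the USDA_OmykA assembly each smad3 copy has an inhibitory Smad gene as a close neighbour. No protein-coding gene lies between smad3a1 and smad6a1, 1 lies between smad3a2 and smad6a2, and 0 lie between smad3b and smad6b. The authors' list puts smad6a1 on chromosome 29 and RefSeq puts it on chromosome 6. The files give no start and end for the probe targets.

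Total counts ran from 52194 to 269554 per sample, and the number of genes above background ran from 7 to 48, with the limit set at the mean plus 2 SD of the sample's 8 negative controls. Counts were divided by a reference factor, the geometric mean of 3 reference genes (tbp, actb and ef1a) over its average. The median factor was 0.349 for muscle and 1.72 for the other tissues, so scaling raised the counts of most muscle samples relative to the others. In Extraocular Muscle 1 and 2 the factor was 1.37 and 1.43. For that reason tests were repeated with pathway scaling, in which the 49 pathway genes take the place of the reference genes. The myostatin gene mstna1 had tissue means of 184.7 to 1663 scaled counts in muscle, 23.7 to 53.7 in the gonads and 3.93 to 148.2 in the remaining tissues. In 11 samples outside the gonads, 5 of muscle and 6 of other tissues, both inhibin alpha probes (inhab1, inhab2) and both mstnb myostatin probes were all above background, whereas inhab1 is otherwise high in the gonads. Ovaries 3 also stood apart, with 341 inhab1 counts against 17796 and 14003 in the other Ovaries samples.

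The smad2a2 probe was above background in 70 of 70 samples, smad3a1 in 69 of 70 and smad3a2 in 35 of 70. The raw counts of smad2a2 ran from 28 to 1697 with a median of 294. Those of smad3a1 ran from 8 to 1183 with a median of 329.5. Those of smad3a2 ran from 1 to 154 with a median of 19.5. The only smad3a1 count not above background, 8, was that of Red Skeletal Muscle 2. The smad3a2 probe exceeded background in 9 of 22 muscle samples and 26 of 48 others, so the remaining 35 values are not distinguishable from probe background. Probes differ in efficiency, so no level of one gene is set against that of another.

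**Figure D1:**
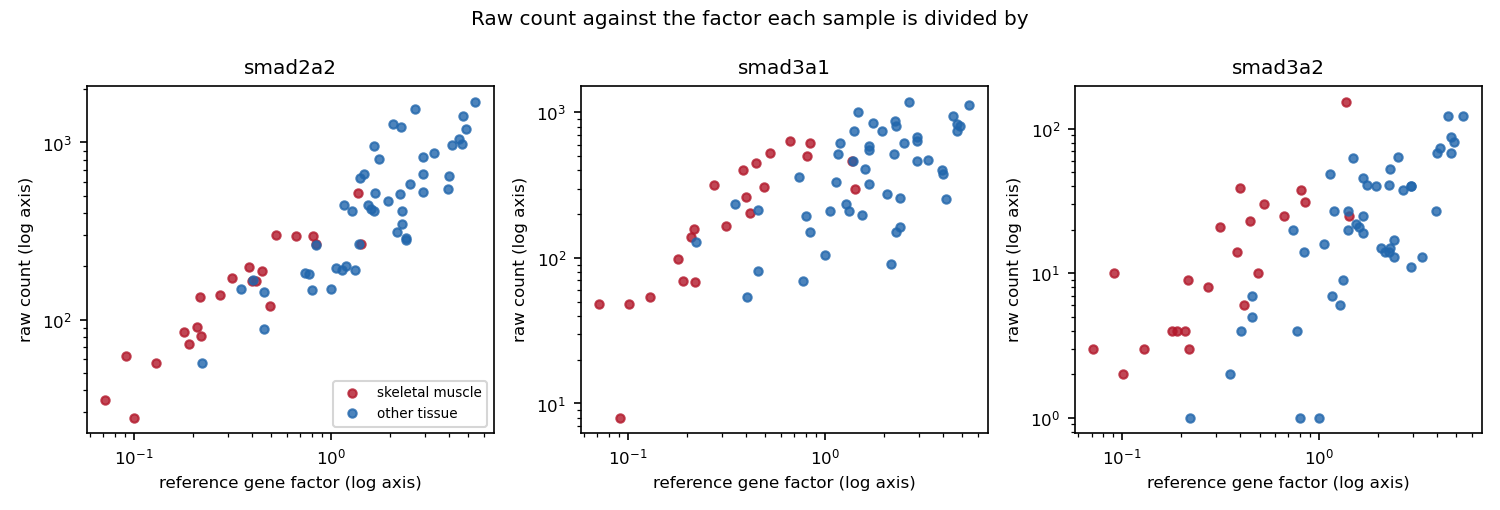
Raw count (vertical, log axis) of each gene against the reference gene factor of the sample (horizontal, log axis), 1 point per sample, 22 of skeletal muscle and 48 of other tissues. Muscle samples lie mostly at low factors (median 0.349, against 1.72 in the others), and at low factors the smad3a2 counts are below 20 in most samples.

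The first question was where each gene is expressed. By edgeR's quasi-likelihood F-test over the 23 tissues all 3 genes were called, as were 49 of 49 panel genes (100%). Under reference scaling the smad2a2 level varied least of all 49 genes, with a range of fitted tissue means of 1.99 on the log2 scale (F = 8.03, adjusted p = 7.26e-10), against a panel median of 4.56. The ranges of smad3a1 (3.16, F = 6.58, adjusted p = 1.63e-08) and smad3a2 (3.29, F = 3.67, adjusted p = 5.9e-05) were also below that median, at ranks 45 and 43 from the widest. With pathway scaling the order turned: smad3a1 had the narrowest range of the 49 genes (1.73) and was not called (adjusted p = 0.214), while smad2a2 (2.34, rank 44) and smad3a2 (3.06, rank 35) were called. That scaling called 47 of the 49 panel genes. With the negative controls subtracted the smad3a2 call was lost (adjusted p = 0.13). Within 4 tissues that share a scale in the authors' own normalized table (Caudal Skeletal Muscle, Red Skeletal Muscle, Heart and Gill) 1 of the 3 genes, smad3a2, was called. Only 1 sample of these tissues, of Gill, was above background for smad3a2. How many of the 49 panel genes passed within these tissues, or with the negative controls subtracted, is not given. In bulk tissue a lower level can come from fewer expressing cells or from less RNA in each cell, and these cannot be told apart here.

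**Figure D2:**
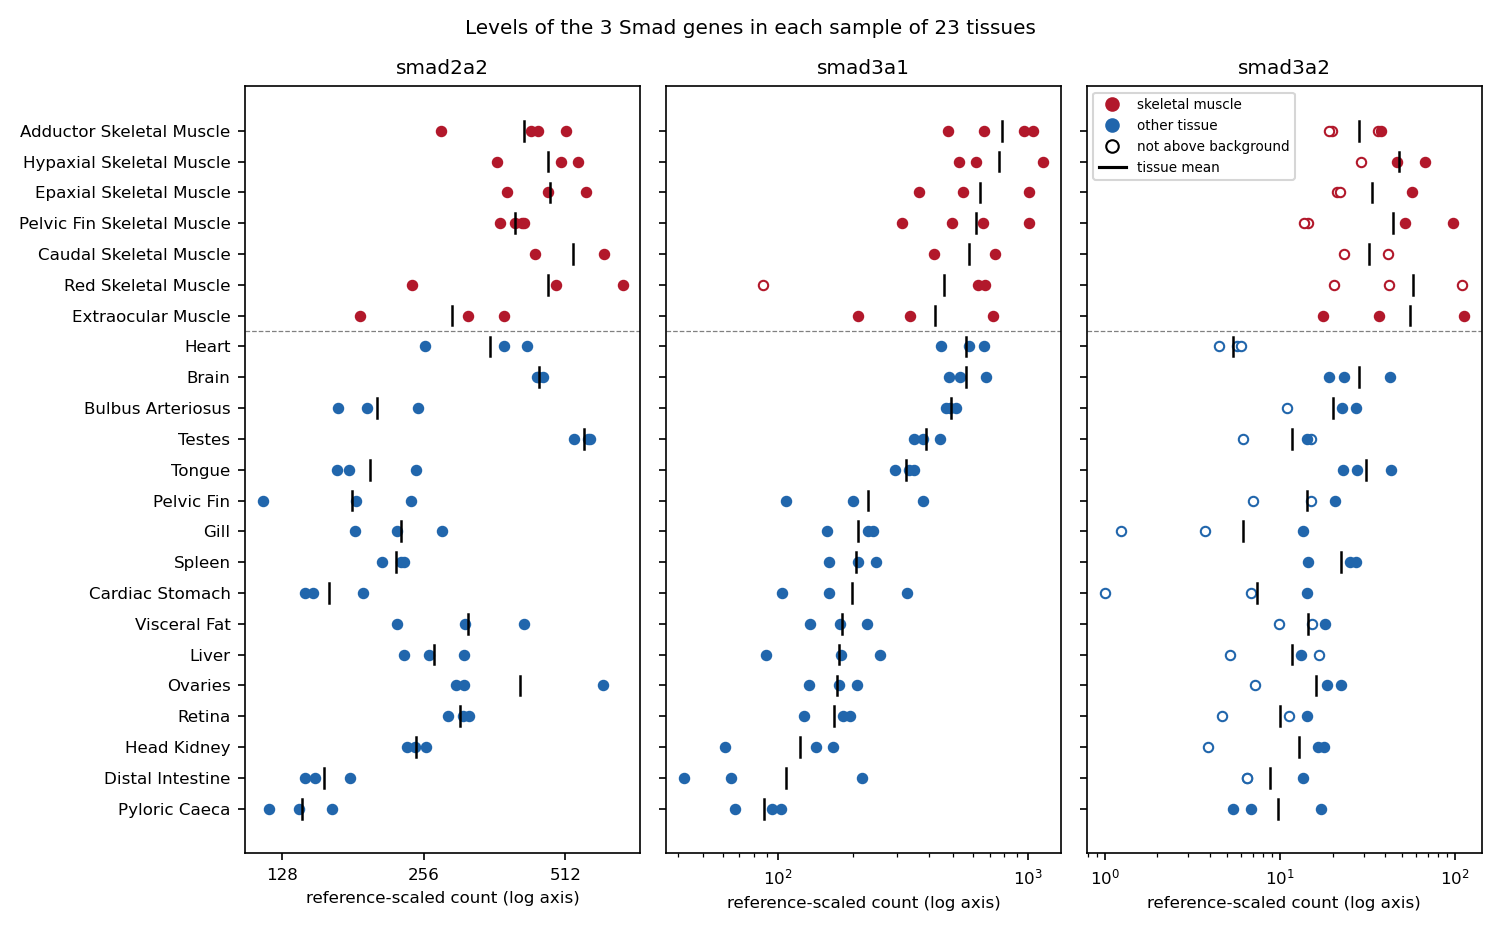
Reference-scaled counts (horizontal, log axis, scaled separately for each gene) of smad2a2, smad3a1 and smad3a2 in every sample of 23 tissues, muscles above the dashed line. Points are samples, open points are not above background and bars are tissue means. The smad2a2 means span 141 to 561, those of smad3a1 88.1 to 786 and those of smad3a2 5.40 to 57.2, where many points are open.

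The smad2a2 probe, which reads the Smad2 copies, was highest in Testes. The scaled counts there were 572, 534 and 578. Next came Caudal Skeletal Muscle at 531 ± 125 (SD, n = 2), then Epaxial, Hypaxial and Red Skeletal Muscle at 475 ± 91.0, 471 ± 93.8 and 470 ± 218 (SD, n = 3 each). Brain was close to these and had the smallest spread in proportion to its level, 451 ± 6.54 (SD, n = 3). The gut lay at the other end. Pyloric Caeca gave 163, 139 and 120, Distal Intestine averaged 158 ± 18.4 and Cardiac Stomach 161 ± 25.4 (SD, n = 3 each). No Pyloric Caeca value overlapped those of Testes, and the tissue means differed 3.98-fold from end to end.

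The smad3a1 level spread wider, 8.92-fold between tissue means. The 5 highest tissues were all muscles. Adductor Skeletal Muscle, the jaw-closing muscle, gave 477, 667, 1043 and 958, with a mean of 786 ± 262 (SD, n = 4). Hypaxial Skeletal Muscle gave 526.2, 1147 and 617.5. Epaxial, Pelvic Fin and Caudal Skeletal Muscle averaged 638 ± 328 (SD, n = 3), 619 ± 297 (SD, n = 4) and 577 ± 224 (SD, n = 2). Heart (565 ± 111), Brain (563 ± 99.7) and Bulbus Arteriosus (490 ± 22.4; SD, n = 3 each), the elastic outflow chamber of the fish heart, came next and overlapped with the muscles. Red Skeletal Muscle gave 627, 87.4 and 672, where the low value is the count of 8 that did not pass background. The lowest tissues were Head Kidney (61.3, 166 and 141), Distal Intestine (216, 42.0 and 64.9) and Pyloric Caeca (94.3, 103 and 67.6). Head Kidney, a blood-forming organ in fish, and Distal Intestine were uneven between samples, whereas the Pyloric Caeca values lay close together.

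The smad3a2 level had muscles in its 6 highest places, on low counts. Red Skeletal Muscle had scaled counts of 20.4, 109 and 42.0 from raw counts of 10, 10 and 3, none above background. Extraocular Muscle, which moves the eye, gave 112, 17.5 and 36.6 from raw counts of 154, 25 and 31, all above background. Hypaxial Skeletal Muscle averaged 47.6 ± 18.9 (SD, n = 3) and Pelvic Fin Skeletal Muscle 44.3 ± 39.7 (SD, n = 4). Outside muscle the highest means were in Tongue (31.2 ± 10.4), Brain (28.3 ± 12.4) and Spleen (22.4 ± 6.84; SD, n = 3 each), where every sample was above background. Gill gave 1.24, 3.73 and 13.6 from counts of 1, 11 and 40, and Heart 5.69, 6.01 and 4.52 from counts of 2, 7 and 1. None of the Heart samples and 1 of the Gill samples was above background, so these 2 lowest means are mainly background readings.

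Placed in order of level, each gene has 22 pairs of neighbouring tissues. In 0 of the 22 did the means differ by more than the sum of their SDs for any of the 3 genes. Samples of neighbouring tissues failed to overlap in 0 pairs for smad2a2, 1 for smad3a1 (Testes above Tongue, 391 ± 47.3 against 325 ± 28.9; SD, n = 3 each) and 0 for smad3a2. The order was set by these same means, so neighbouring means are close by construction. The count was not made for the other panel genes and shows nothing particular to these members. The place of a tissue relative to its neighbours is not resolved here, and tissues farther apart were not counted this way.

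Among the 3 members, the 11 samples in which inhibin and myostatin probes read together were most often the highest of their tissue for smad3a2. They lie in 10 tissues, and in 8 of these such a sample had the highest smad3a2 level of its tissue, compared with 4 tissues for smad2a2 and 2 for smad3a1. Such a sample had the lowest level of its tissue in 5 tissues for smad3a1, 4 for smad2a2 and 2 for smad3a2. The same counts were not made for the other panel genes, so neither pattern is shown to be particular to these members. Extraocular Muscle 1, with 154 smad3a2 counts, had 201 inhab1, 173 inhab2, 206 mstnb1 and 173 mstnb2 counts. Spleen 1, with 123 smad3a2 counts, had 242, 122, 175 and 69 of the same probes. Without the 11 samples the range of smad3a2 was 2.77 in place of 3.29 (adjusted p = 0.00304), and Hypaxial Skeletal Muscle became the highest tissue at 37.9 ± 12.4 (SD, n = 2). Extraocular Muscle then ranked 8th of the 23 at 27.1 ± 13.5 (SD, n = 2). In each of the 10 tissues except Adductor Skeletal Muscle, such a sample also had, or shared, the most genes above background. Extraocular Muscle 1 had 48, against 30 and 42 in the other samples of that tissue. In Adductor Skeletal Muscle the joint sample, replicate 2, had 38 against 41 in replicate 4. What links these probes in these samples was not tested.

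Skeletal muscle as a class was then set against the other tissues, with each tissue's summed counts as 1 unit, 7 against 16. All 3 genes were higher in muscle under reference scaling, as were 27 of the 49 panel genes (55.1%), with a panel median difference of +1.10 on the log2 scale. Muscle means of smad3a1 had a lowest, median and highest value of 424, 619 and 786, against 88.1, 201 and 565 in the other tissues. The groups overlapped, with 5 of 7 muscles above every other tissue, and the means were 610 ± 137 (SD, n = 7) and 262 ± 157 (SD, n = 16). The difference was 1.30 ± 0.31 (SE) on the log2 scale, or 2.46-fold (edgeR's quasi-likelihood test, adjusted p = 0.00108).

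Muscle means of smad3a2 had a lowest, median and highest value of 28.2, 44.3 and 57.2, against 5.40, 12.3 and 31.2 in the other tissues. Of the 7 muscles, 6 lay above every other tissue, and the difference was 1.49 ± 0.29 (SE), or 2.82-fold (edgeR's quasi-likelihood test, adjusted p = 0.000116). Of the 22 muscle samples 13 were not above background for smad3a2, and their readings were divided by a low reference factor. With the negative controls subtracted the difference was 1.16 and the call was lost (adjusted p = 0.0687). Without the 11 joint samples it was 1.19 (adjusted p = 0.00253).

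Muscle means of smad2a2 had a lowest, median and highest value of 295, 470 and 531, against 141, 238 and 561 in the other tissues. No muscle exceeded Testes, and all 7 exceeded the median of the others. The difference, 0.63 ± 0.27 (SE), was the smallest of the 3 and lay close to the threshold (edgeR's quasi-likelihood test, adjusted p = 0.0471). The call was lost in 16 of 70 omissions of 1 sample (adjusted p from 0.0178 to 0.0688) and without the 11 joint samples (0.54, adjusted p = 0.0962).

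The direction depended on the scaling. With pathway scaling the panel median moved to −0.37, and 10 of 49 genes were lower in muscle (20.4%) and 4 higher. Against that scale smad2a2 was lower in muscle (−0.98 ± 0.24 (SE), adjusted p = 0.00506), while smad3a1 (−0.19, adjusted p = 0.547) and smad3a2 (−0.092, adjusted p = 0.785) were not called. The pathway factor has limits too, since it is made of the genes under test. That 27 of its 49 genes were higher in muscle under reference scaling cannot decide between the scalings, since that count depends on the reference factor. Genes above background ran from 7 (Adductor Skeletal Muscle 1) to 48 (Extraocular Muscle 1) among muscle samples, so in some samples the pathway factor rests largely on background readings. With tbp alone as reference all differences were positive, at 0.30 for smad2a2 (adjusted p = 0.304), 0.87 for smad3a1 (adjusted p = 0.0406) and 0.99 for smad3a2 (adjusted p = 0.0459). In the tissues that share the most common scale of the authors' table the differences were 0.48, 1.14 and 1.40, and in the 4 tissues of the lower scale 0.46, 0.66 and 2.27, in the order smad2a2, smad3a1 and smad3a2, with smad3a2 called in both (adjusted p = 0.024 and 0.0318). How many of the 49 panel genes passed with tbp alone or within these sets of tissues is not given. The lower scale sets only Caudal and Red Skeletal Muscle against Heart and Gill. In these tissues 1 Gill sample alone was above background for smad3a2, so the difference of 2.27 rests mainly on background readings. Under each setting run, smad2a2 had a smaller or more negative muscle difference than smad3a1 and smad3a2, an order that was tested only through the count ratios.

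**Figure D3:**
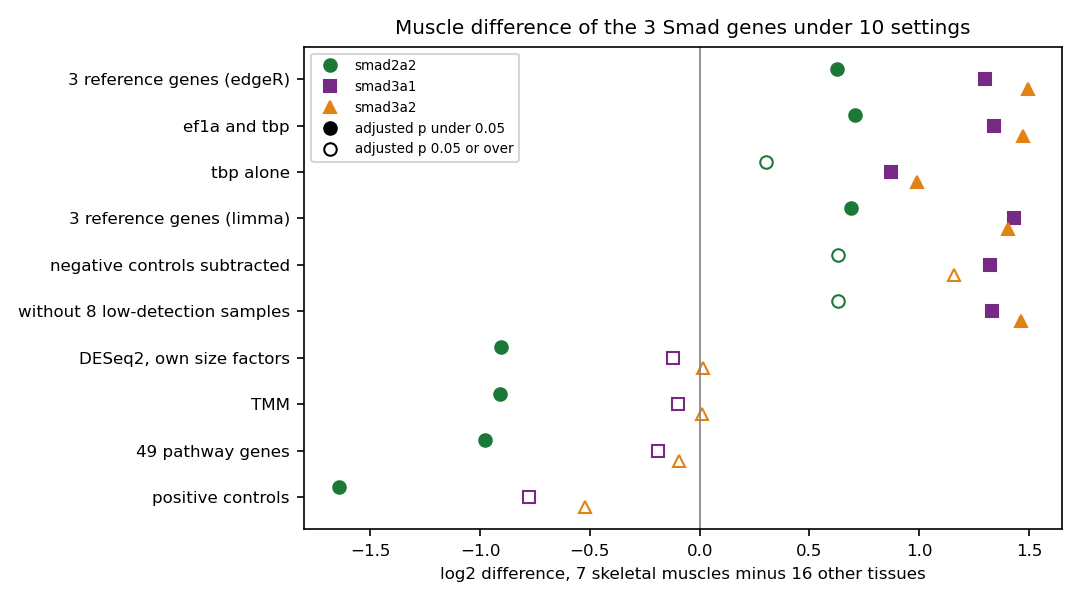
Log2 difference of 7 skeletal muscles minus 16 other tissues (horizontal) for the 3 genes under 10 settings (vertical), filled where adjusted p was under 0.05. With reference genes smad2a2 lies at 0.30 to 0.71 and the smad3 probes between 0.87 and 1.49, while scaling by the 49 pathway genes or the positive controls puts smad2a2 at −0.98 and −1.64. TMM and DESeq2 also scale by the 49 pathway genes. The positive control factor uses no trout gene and leaves in any difference in signal across a whole sample.

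The partners of these Smads were read from lists of the panel's other genes. Among 7 common Smads, 3 were higher in muscle (median 0.99), led by smad4aa1 (3.66, adjusted p = 7.69e-08) and smad4ba2 (2.18, adjusted p = 1.34e-05). Only 1 of the 7, smad4aa1, was higher with pathway scaling (1.93, adjusted p = 0.000205), and 2 were lower. Under reference scaling neither of the 2 inhibitory Smads was called. The smad7b2 difference was 1.13 (adjusted p = 0.059) and that of smad6a1 −0.17 (adjusted p = 0.815). Of the 6 type I receptors that phosphorylate Smad2 and Smad3 (acvr1b and acvr1c), 2 were higher, acvr1ca2 (2.45, adjusted p = 0.00268) and acvr1ca1 (2.23, adjusted p = 0.0432). All 4 acvr1a receptors, which act on other Smads in mammals, were higher, led by acvr1aa1 (1.77) and acvr1ab2 (1.45). Among 7 type II receptors 4 were higher, led by acvr2ab1 (1.86) and acvr2ab2 (1.51), and among 13 ligand probes 6 were, led by mstna1 (4.68) and mstnb2 (2.51). The smad2a2 difference of 0.63 lay below the panel median, and those of smad3a1 and smad3a2 lay above it. With pathway scaling 2 ligands stayed higher and 3 were lower, 2 acvr1b or acvr1c receptors and 1 type II receptor were lower, and 0 acvr1a receptors were called. The inhibitory Smad smad6a1 was also lower with that scaling (−1.75, edgeR's quasi-likelihood test, adjusted p = 0.0354), and smad7b2 was not called.

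Among the 7 muscles themselves none of the 3 genes was called, which with 2 to 4 samples per muscle does not show that their levels are equal. The ranges of fitted means were 0.85 for smad2a2 (adjusted p = 0.332), 0.90 for smad3a1 (adjusted p = 0.613) and 0.90 for smad3a2 (adjusted p = 0.856), while 10 of 49 panel genes passed (20.4%; edgeR's quasi-likelihood F-test). At an unadjusted p the 3 genes did not pass either (0.197, 0.526 and 0.838). The panel's median range among muscles was 1.74.

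Each tissue was also compared with the mean of the other 22, to ask where each gene is concentrated. Of 69 pairs of gene and tissue, 6 were enriched (adjusted p under 0.05 over 1127 pairs, mean count in the tissue of 20 or more, difference of 1 or more), against 184 of 1127 in the panel (16.3%), and 6 were depleted, against 188 of 1127 (16.7%). All 6 enriched pairs lay in muscle, as did 119 of the panel's 184. The smad3a1 gene was enriched in Adductor (1.45 ± 0.28, SE), Hypaxial (1.40 ± 0.32, SE), Epaxial (1.13 ± 0.33, SE) and Pelvic Fin Skeletal Muscle (1.09 ± 0.29, SE). The smad3a2 gene was enriched in Extraocular Muscle (1.66 ± 0.42, SE) and Hypaxial Skeletal Muscle (1.43 ± 0.47, SE). In Red (1.57, mean count 7.67) and Pelvic Fin Skeletal Muscle (1.34, mean count 17.75) smad3a2 missed only the count minimum. No minimum count was set for depleted pairs. The smad2a2 gene was enriched nowhere, and came closest in Testes (0.95 ± 0.19 (SE), adjusted p = 8.3e-05), where it missed the minimum of 1.

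Several of these calls rested on 1 sample. For smad3a2 in Extraocular Muscle the difference was 0.61 (adjusted p = 0.377) without Extraocular Muscle 1 and 0.72 (adjusted p = 0.295) without the 11 joint samples. For smad3a2 in Hypaxial Skeletal Muscle it was 1.12 (adjusted p = 0.112) without Hypaxial Skeletal Muscle 1, which is 1 of the joint samples, and without replicate 3 its mean count fell under the minimum. For smad3a1 the Epaxial call was lost without Epaxial Skeletal Muscle 3 (0.64, adjusted p = 0.214), and the Pelvic Fin Skeletal Muscle call without replicate 3 (0.74). In Hypaxial Skeletal Muscle smad3a1 fell just under the minimum without replicate 2 (0.98). The smad3a1 call in Adductor Skeletal Muscle held in 70 of 70 omissions, at 1.28 to 1.62.

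Depleted pairs were found in the gut, in Head Kidney, Heart and Gill. In Pyloric Caeca, the blind tubes behind the stomach, smad2a2 was lower by −1.13 ± 0.24 (SE) and smad3a1 by −1.86 ± 0.45 (SE), and both calls held in 70 of 70 omissions. Both depended on the scaling, since smad2a2 was at 0.23 with pathway scaling (adjusted p = 0.608) and −0.30 with tbp alone (adjusted p = 0.386), and smad3a1 at −0.52 (adjusted p = 0.479) and −1.05 (adjusted p = 0.107). In Distal Intestine smad3a1 was lower by −1.55 ± 0.44 (SE), by −1.17 (adjusted p = 0.0513) without replicate 2 and by −2.56 without replicate 1. In Head Kidney smad3a1 was lower by −1.36 ± 0.43 (SE), by −1.04 (adjusted p = 0.0817) without replicate 1 and by −1.07 (adjusted p = 0.0684) without the 11 joint samples. Pathway scaling put Head Kidney at 0.52 (adjusted p = 0.427) for smad3a1. For smad3a2 the differences were −1.79 ± 0.71 (SE) in Heart and −1.53 ± 0.59 (SE) in Gill, on mean counts of 3.33 and 17.3, and the Heart call was lost without any 1 of its 3 samples. The Gill call was lost without Gill 1 (−1.15, adjusted p = 0.155) or Gill 2 (−1.23, adjusted p = 0.149), and the difference was −2.75 without Gill 3.

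With pathway scaling 4 of the 69 pairs were enriched, against 145 of 1127 in the panel, and 1 was depleted, against 94 of 1127. None of the 4 enriched pairs lay in muscle, where 40 of the panel's 145 lay. The smad2a2 gene was enriched in Testes (1.51 ± 0.27, SE) and Head Kidney (1.49 ± 0.27, SE). The smad3a2 gene was enriched in Tongue (1.29 ± 0.33, SE) and Spleen (1.10 ± 0.33, SE) and depleted in Heart (−1.90 ± 0.58, SE). Without the 11 joint samples, of which 2 are Spleen and 1 is Head Kidney, the same 5 pairs were called, with smad3a2 at 1.54 in Spleen (1 sample left, adjusted p = 0.039) and smad2a2 at 1.77 in Head Kidney. No tissue was called for smad3a1. Testes, with the highest smad2a2 level under reference scaling, had the largest smad2a2 difference under pathway scaling too (with the joint samples left out, Head Kidney had), and Heart was depleted in smad3a2 under both scalings, always on counts not above background.

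Related tissues were compared in 3 pairs. Brain and Retina are both neural. The smad3a1 level in Brain was 531, 675 and 484, against 182, 193 and 127 in Retina, without overlap. The difference was 1.75 ± 0.53 (SE), or 3.37-fold (adjusted p = 0.00738), in a comparison where 17 of 49 genes differed (34.7%). With pathway scaling it was 0.99 and was not called (adjusted p = 0.245), nor was it with tbp alone (0.84, adjusted p = 0.331). Without the joint samples, of which Retina 3 is 1, it was 1.59 (adjusted p = 0.0301). The smad2a2 level was 446, 449 and 458 in Brain against 320, 310 and 288 in Retina, again without overlap, and the difference of 0.56 ± 0.30 (SE) was not called (adjusted p = 0.138). For smad3a2, with 28.3 ± 12.4 in Brain against 10.1 ± 4.90 in Retina (SD, n = 3 each), the difference was 1.47 ± 0.71 (SE, adjusted p = 0.102). Of the Smad partners, 3 of 7 common Smads were higher in Brain, led by smad4ba1 (1.59) and smad4aa1 (1.31), as were 4 of 6 acvr1b and acvr1c receptors, led by acvr1ca1 (2.52) and acvr1bb1 (2.16). With pathway scaling 0 of the 7 common Smads were higher in Brain and 1, smad4bb2, was lower (−1.75, adjusted p = 0.00159), while 4 of the 6 receptors stayed higher.

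Heart and Bulbus Arteriosus are the muscular pump and its elastic outlet, and 8 of 49 genes differed between them (16.3%). The smad2a2 level was 424, 379 and 258 in Heart, against 169, 194 and 249 in Bulbus Arteriosus. The groups did not overlap, and the difference of 0.80 ± 0.30 (SE) just missed the threshold (adjusted p = 0.0539), which it passed in 9 of 70 omissions of 1 sample. The smad3a1 level was 668, 447 and 579 in Heart against 514, 469 and 488 in Bulbus Arteriosus, with overlap (0.20 ± 0.52 (SE), adjusted p = 0.829). For smad3a2 the difference was −1.86 ± 0.85 (SE, adjusted p = 0.107), called with pathway scaling (−2.07, adjusted p = 0.013), on Heart counts of 2, 7 and 1. Pathway scaling called 19 of the 49 panel genes in this pair. Of 7 common Smads 1 was higher in Heart, smad4ab2 (2.70), and 1 lower, smad4bb2 (−1.48), against 1 higher and 2 lower with pathway scaling.

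Ovaries were compared with Testes, which also compares female with male fish. None of the 3 genes was called, and 11 of 49 panel genes were (22.4%). The smad3a1 level was 175, 206 and 133 in Ovaries, against 350, 381 and 443 in Testes, without overlap, and the difference of −1.19 ± 0.52 (SE) did not pass (adjusted p = 0.0965; −1.04, adjusted p = 0.183, without Ovaries 3). The smad2a2 level was 299.5, 312 and 617 in Ovaries against 572, 534 and 578 in Testes. Ovaries 3 lay above all Testes samples, and the difference was −0.45 ± 0.30 (SE, adjusted p = 0.29), or −0.88 (adjusted p = 0.0406) without it. For smad3a2 the Ovaries gave 18.6, 22.4 and 7.25 against 14.97, 6.13 and 14.2 in Testes (0.47 ± 0.69 (SE), adjusted p = 0.767; 0.80, adjusted p = 0.423, without Ovaries 3). Among 13 ligand probes 2 were higher in Ovaries, the activin beta chain genes inhbab1 (4.98) and inhbbb1 (2.54), and 1 was lower, inhbaa2 (−1.67, adjusted p = 0.013). Among 7 type II receptors 3 were higher, led by acvr2ba1 (2.74) and acvr2ba2 (2.56), and 1 was lower, acvr2ab2 (−1.48, adjusted p = 0.0239). Of the 6 acvr1b and acvr1c receptors 1 was higher, acvr1ba1 (1.88), and inhbaa2 and acvr2ab2, as the lower members of their lists, were named after their values were seen. Ovaries samples were uneven for inhbab1 (153 ± 133), inhbbb1 (75.1 ± 55.3) and acvr2ba1 (89.5 ± 71.8; SD, n = 3 each), and the partner differences are not given without Ovaries 3. With pathway scaling 2 ligands were higher and 1 lower, and 3 type II receptors were higher and 2 lower. None of the 3 Smad genes was called with that scaling (smad3a1 at −1.66, edgeR's quasi-likelihood test, adjusted p = 0.0624).

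Ratios between Smad counts of the same sample need no reference gene. The balance of Smad2 to Smad3 was taken as log2((smad2a2 + 10)/(smad3a1 + smad3a2 + 10)) of raw counts, where only differences between tissues can be read. The smad3b copy has no probe and is left out. Median raw counts were 329.5 for smad3a1 and 19.5 for smad3a2, so the balance mainly compares smad2a2 with smad3a1. It varied among the 23 tissues (F = 4.02, permutation p = 1e-05, the smallest that 100000 permutations can give). The balance was most toward Smad2 in Ovaries (1.05 ± 0.91), Head Kidney (0.93 ± 0.57) and Retina (0.78 ± 0.21; SD, n = 3 each). It was most toward Smad3 in Bulbus Arteriosus (−1.28 ± 0.31, SD, n = 3), Adductor Skeletal Muscle (−0.86 ± 0.26, SD, n = 4) and Tongue (−0.85 ± 0.28, SD, n = 3). The Ovaries mean rested on Ovaries 3 (0.62, 0.44 and 2.10 in the 3 samples), and without it was 0.53, rank 6 of the 23 tissues. Without the joint samples Head Kidney was at 0.62 ± 0.28 and Retina at 0.67 ± 0.12 (SD, n = 2 each). Every Bulbus Arteriosus sample lay between −1.62 and −1.01, and every Retina sample between 0.59 and 1.00.

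In muscle the Smad2 to Smad3 balance averaged −0.48 ± 0.27 (SD, n = 7 tissues), against 0.14 ± 0.69 (SD, n = 16) in the other tissues. The difference of −0.62 had an exact two-sided permutation p of 0.0341, and 0.0591 after adjustment over the 2 ratios tested. It held in sign in 70 of 70 omissions of 1 sample, of which 15 gave an adjusted p under the threshold (0.0301 to 0.0752). Without the 11 joint samples it was −0.80 (exact permutation test, adjusted p = 0.0237). None of the 7 muscles lay above the other tissues' median of 0.29, and the tissues with the lowest balance included Bulbus Arteriosus, Tongue and Heart (−0.65 ± 0.40, SD, n = 3) as well as muscles.

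**Figure D4:**
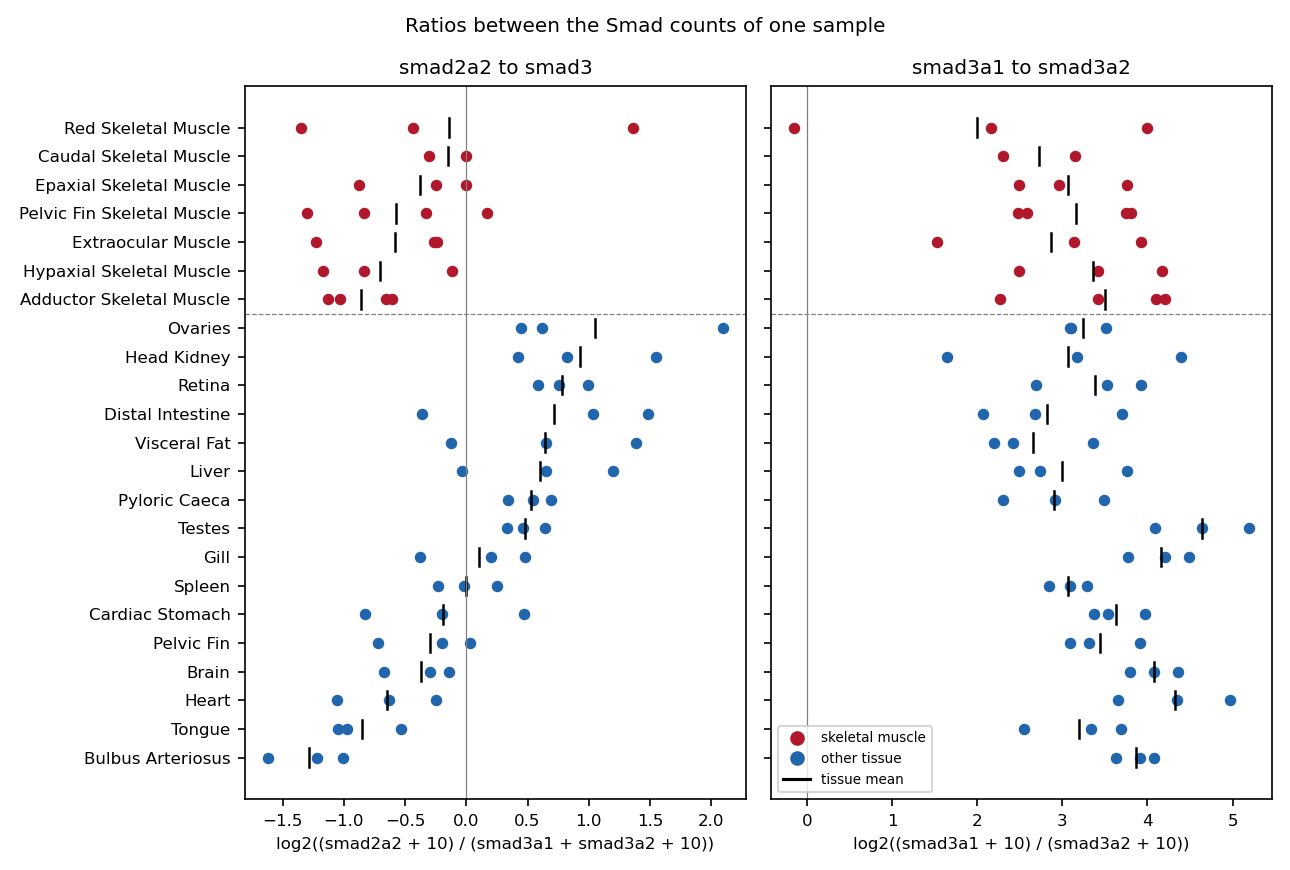
Log2 ratio of smad2a2 to the smad3 probes (left panel) and of smad3a1 to smad3a2 (right panel), from raw counts plus 10, in each sample of 23 tissues, muscles above the dashed line. Bars are tissue means. Muscle means of the first ratio lie between −0.86 and −0.14, the other tissues between −1.28 and 1.05, and Red Skeletal Muscle has the lowest mean of the second ratio at 2.00.

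The smad3a1 to smad3a2 ratio, tested as copy by tissue in edgeR, also differed among tissues (F = 2.09, adjusted p = 0.0191 over 21 duplicate pairs, of which 17 were called, 81%). By F it stood 16th of the 21 pairs. The log2 ratio of raw counts plus 10 was highest in Testes (4.64 ± 0.55), Heart (4.32 ± 0.66) and Gill (4.16 ± 0.36) and lowest in Visceral Fat (2.66 ± 0.62) and Red Skeletal Muscle (2.00 ± 2.08; SD, n = 3 each), where 1 sample was at −0.15. With the negative controls subtracted F was 1.56 and the call was lost (adjusted p = 0.142), and without the joint samples, 1 of them the Red Skeletal Muscle sample at −0.15, F was 3.12 (adjusted p = 0.000876) and Red Skeletal Muscle stood at 3.07 ± 1.30 (SD, n = 2). In muscle the ratio averaged 2.95 ± 0.50 (SD, n = 7), against 3.47 ± 0.59 (SD, n = 16) elsewhere (difference −0.51, exact permutation test, adjusted p = 0.0591), and the difference was −0.19 (adjusted p = 0.488) without the 11 joint samples. By the same test it was −0.35 (adjusted p = 0.356) with 1 added to the counts in place of 10. Without the 8 samples with at most 24 genes above background it was −0.42 (adjusted p = 0.175). In the tissues of the authors' most common scale it was −0.27 (adjusted p = 0.524). Where smad3a2 is at background, this ratio follows the smad3a1 count and not a balance of copies.

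The panel genes whose tissue pattern was most like each Smad were found by Pearson's r over the 23 tissue means of log2(scaled count + 10), as a description. All points share the reference factor, which ran lower in muscle. For smad2a2 they were the type II receptor acvr2ab2 (r = 0.76), the common Smad smad4aa2 (0.75) and smad3a1 (0.70). For smad3a1 they were smad4aa2 (0.88), acvr2ab2 (0.83) and the inhibitory Smad smad7b2 (0.78). With pathway scaling the r of smad3a1 with smad4aa2 was 0.62 and that of smad2a2 with smad4aa2 0.52, while smad2a2 with acvr2ab2 dropped to 0.15.

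For smad3a2 the most similar genes were the myostatin probes mstnb1 (0.77) and mstnb2 (0.77) and the common Smad smad4ba2 (0.76). The 11 joint samples are by definition above background in both mstnb probes. Without them r with mstnb1 was 0.54 (15th of the 48 other genes), with mstnb2 0.57 (14th) and with smad4ba2 0.65 (10th), and the 3 most similar genes were acvr1aa1 (0.74), smad4aa2 (0.72) and smad3a1 (0.71). For smad3a1 the same omission left smad4aa2 (0.88), acvr2ab2 (0.81) and smad7b2 (0.75) in the first 3 places. With pathway scaling and all samples, smad3a2 had r = 0.43 with mstnb1, 0.20 with mstnb2 and 0.083 with smad4ba2. Only 9 of 22 muscle samples were above background for smad3a2, so its pattern under reference scaling rests partly on background readings.

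**Figure D5:**
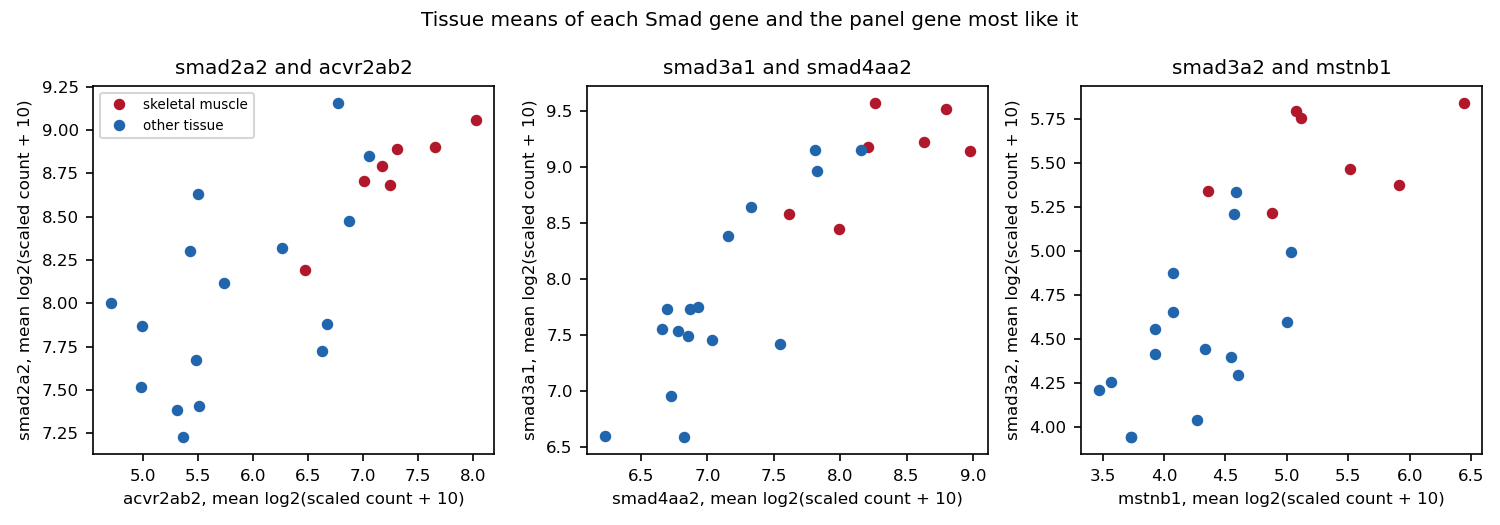
Tissue means of log2(scaled count + 10) of each Smad gene (vertical) against the panel gene most like it (horizontal), 1 point per tissue, 7 muscles and 16 other tissues. The panels have r of 0.76, 0.88 and 0.77, and muscles lie at the upper right in each.

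Between the members, the tissue means of smad2a2 and smad3a1 had r = 0.70, those of smad3a1 and smad3a2 r = 0.63 and those of smad2a2 and smad3a2 r = 0.50 (23 tissues). Within tissues, over 70 samples as deviations from their tissue mean, the r values were 0.14, 0.20 and 0.45 under reference scaling and 0.65, 0.32 and 0.15 under pathway scaling. The value within tissues thus turned on the scale, which all values of a sample share.

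The authors' deposited table gives 1 normalized value per gene and tissue. Set against the counts, in 21 tissues it matched the geometric mean of the tissue's samples after reference scaling times 1 constant, within 0.02 on the log2 scale for 37 to 46 of the 49 genes (smad3a2 in Gill was off by 0.043). Adductor Skeletal Muscle, with replicate 1 left out, and Pelvic Fin Skeletal Muscle mixed constants. The constant was 2.45-fold lower in 4 tissues (Caudal Skeletal Muscle, Red Skeletal Muscle, Heart and Gill) than in the 13 tissues with the most common constant. In the authors' deposited table smad2a2 was highest in Testes (1009.3), and smad3a1 and smad3a2 were highest in Hypaxial Skeletal Muscle (1295.3 and 80.96). In the authors' deposited table Caudal Skeletal Muscle ranked 14th for smad2a2 at 384.38, against rank 2 with 1 scale for all samples. In the authors' deposited table Gill was lowest for smad2a2 (165.66) and smad3a2 (3.01). Levels of the 4 tissues in that table are therefore not on the scale of the others.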

How the data were processed

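The authors deposited raw barcode counts, 1 whole number per probe and sample, not normalized (from the values: totals differ between samples), and a table of normalized signal, 1 deposited value per gene and tissue, made in a way that the sources used here do not state. No count was 0, so zeros may have been raised to 1. From the counts, tissue coefficients for 49 genes were fitted over 70 samples with edgeR 4.0.16 (quasi-likelihood, R 4.3.3), with offsets from 3 reference genes; muscle was compared on counts summed per tissue. Tests of a single difference were two-sided, and F-tests used the upper tail. Adjusted p-values are by Benjamini-Hochberg over 49 genes, 1127 pairs of gene and tissue, 21 duplicate pairs or the 2 ratios set against muscle, at 0.05. The permutation p of the Smad2 to Smad3 F is not adjusted. DESeq2 1.42.0 and limma 3.58.1 were alternatives; figures used matplotlib 3.10.9 in Python 3.11.15. The steps were run on simulated data with planted changes larger than the muscle and pair differences of the 3 members. The simulated reference genes had no noise, so the choice of scaling was not tested in this way. Named genes are the 3 members, the 3 most similar genes of each and at most 2 genes per list with the largest difference past the threshold. The members, lists and tests were chosen with earlier results of these data known. Replicates are biological per the series design; p-values measure the spread between these samples, and in the muscle comparison between tissues. Negative controls averaged 2.5 to 11.5 counts per sample, which limits precision for smad3a2. Replicate numbers were not used to pair samples in the main tests. Same-numbered samples of different tissues had a mean correlation of 0.017, against −0.0079 for samples of other numbers. With 2 to 4 samples per tissue this cannot show whether tissues share fish. No replicates were copies of each other.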

Additional observations from a re-analysis of the deposited data

How the results depend on the processing

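The settings were reference scaling against pathway, TMM, positive control, tbp and ef1a with tbp scaling, DESeq2, limma, background subtraction, a count minimum, low-detection samples out and each sample out; fits within the authors' scale sets and without the 11 joint samples were added after seeing the data. The sets as a block were not run, since their samples in 2 tissues could not be told. The muscle comparison had 3 members higher. It had 0 higher and 1 lower with each of pathway scaling, TMM, DESeq2 and positive controls. TMM and DESeq2 also take their factors from the pathway genes, so they are not checks separate from pathway scaling. With the reference genes, limma at pseudocount 10 kept 3 members higher (smad2a2 0.69, smad3a1 1.43 and smad3a2 1.40). The comparison had 1 member higher with negative controls subtracted or within set A (the most common scale) or set C (the lower one). Turned differences in muscle were, for smad2a2, −0.98 (pathway), −0.91 (TMM), −0.90 (DESeq2) and −1.64 (positive controls), for smad3a1 −0.19, −0.10, −0.12 and −0.78, and for smad3a2 −0.092 (pathway) and −0.52 (positive controls). Against the other 22 tissues, depleted pairs numbered 1 with pathway scaling, TMM, DESeq2 and positive controls and 3 with limma at pseudocount 50, where 2 pairs were enriched. Turned values there were smad2a2 in Pyloric Caeca 0.23 (pathway), 0.26 (DESeq2) and 0.48 (positive controls); smad3a1 in Epaxial Skeletal Muscle −0.14 (pathway), −0.14 (TMM), −0.089 (DESeq2) and −0.67 (positive controls), in Head Kidney 0.52, 0.61, 0.47 and 0.55, in Pelvic Fin Skeletal Muscle −0.10 (DESeq2) and −0.47 (positive controls), and −0.17 in both Adductor and Hypaxial Skeletal Muscle (positive controls). Of the tissue pairs, the 1 call (Brain minus Retina smad3a1) gave way to another (Heart minus Bulbus Arteriosus smad3a2) with pathway, TMM, tbp and DESeq2 scaling, and became 2 with ef1a and tbp, limma at pseudocount 50 or a mean count of at least 20, and 0 with positive controls. Turned values were Brain minus Retina smad2a2 −0.16 (pathway), −0.15 (TMM), −0.43 (DESeq2) and −0.31 (tbp); Heart minus Bulbus Arteriosus smad3a1 −0.020 (pathway), −0.0082 (DESeq2), −0.31 (ef1a and tbp) and −0.64 (tbp); and Ovaries minus Testes smad3a2 −0.074 (pathway) and smad2a2 0.15 (positive controls). Variation among tissues called 3 members, 2 with pathway, TMM or positive control scaling or DESeq2 (without smad3a1) or negative controls subtracted (without smad3a2), and 1 within set C. The smad3a ratio had F = 1.56 with negative controls subtracted. The smad2a2 to smad3 difference in muscle was −0.80, now called, without the joint samples. The cause of these changes was not tested. The share of the panel called is given only for reference and pathway scaling.

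With 1 sample left out, enriched pairs numbered 5 to 8, depleted pairs 5 to 9, members higher in muscle 2 to 3 and calls among tissue pairs 1 to 3. Variation kept 3 members, that among muscles 0 and lower in muscle 0 in each omission. The F of the smad3a ratio ran from 1.83 to 2.61 and that of the smad2a2 to smad3 ratio from 3.67 to 5.25. The muscle differences of the ratios ran from −0.73 to −0.53 and from −0.65 to −0.36. With the replicate block 6 pairs were enriched and 6 depleted, 3 members were higher in muscle, and smad3a1 in Pelvic Fin Skeletal Muscle was 0.97, below the minimum of 1. Whether same-numbered samples came from 1 fish is not given. Depth limits smad3a2 most, with 35 of 70 samples above background.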
